A study of Mus musculus with 15 samples.

Results

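The 34 genes described here are the mouse chemokine ligands of a list fixed by name, and each was found once, by Ensembl gene ID and symbol, among the 55471 genes of the count table. They are 18 ligands of the CC kind (Ccl genes), 14 of the CXC kind (Cxcl genes, Ppbp and Pf4), Cx3cl1 and Xcl1. The list goes by gene names and does not hold every mouse chemokine. The counts below are for the genes on it, in 15 libraries of poly(A)-enriched RNA.

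Chemokine ligands are small proteins that cells release to steer blood cells along a gradient, and they act through G protein-coupled receptors on the arriving cells. The large families are told apart by their first cysteines, which stand side by side in CC ligands and are parted by another residue in CXC ligands. Ligands of the CC family mainly draw monocytes, T cells and eosinophils, while CXC ligands that carry a Glu-Leu-Arg triplet before the cysteines draw neutrophils and those without it mainly draw lymphocytes. In bone marrow, stromal cells release CXCL12, which holds blood-forming cells in place, and CCL2, which lets monocytes leave. Many of the inflammatory ligand genes are switched on by NF-kappaB after contact with interleukin 1 or tumour necrosis factor, and CXCL9, CXCL10 and CXCL11 by interferons.

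The study is about the fusion oncogene EWS::FLI1, the driver of Ewing sarcoma, the growth factor IGF-1 and the coactivator YAP1 in the transformation of bone mesenchymal stem cells. Every library is labelled as mouse cells of the type MSCLC, an abbreviation the labels do not spell out. In experiment 1, 4 libraries of genotype EFPrx1MSCLC (titles 219, 221, 225 and 229) were set against 3 of genotype MSC. The MSC titles are 202, 234_WT and 237_WT, given below as 202, 234 and 237. The series design calls the MSC cells wild type, but the title of 202 lacks the WT mark. Experiment 2 holds 4 libraries of genotype hr, 2 of genotype ha and 2 of genotype EF, all described in the series design as EFPrx1 cells.
The hr libraries form 2 pairs by their titles, uns-1 (uns-1-1, uns-1-2) and uns-2 (uns-2-1, uns-2-2), the ha titles end in T1 and T2, and 221 is part of all 8 titles. The sources used here do not say what ha, hr or Combi stand for, which promoter drives the fusion, or how the cells were grown, and the EF cells of experiment 2 share the EFPrx1 background with the ha and hr cells. Whether the libraries of a group stem from separate cultures or mice is not labelled, so a p-value reflects library-to-library spread that could be technical. The flowcell differs between the experiments and cannot be told apart from them, so no test was made between experiments.

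Library totals ran from 14906209 to 26833922 counts in experiment 1 and from 11195401 to 16378408 in experiment 2. In experiment 2 the EF pair, the uns-1 pair and the uns-2 pair were close copies: the median squared difference within a pair was 1.36, 1.32 and 1.31 times counting noise, against 12.5 to 13.6 times between an uns-1 and an uns-2 library and 16.3 times for the ha pair. They were kept as separate libraries, and the counts and calls of experiment 2 are given again with the close libraries summed. In experiment 1 the same measure was 76 and 54 times counting noise for MSC 202 against MSC 234 and 237. Between MSC 234 and 237 it was 9.42 times. In EFPrx1MSCLC it was 6.19 times between 221 and 229 and 35.7 to 67.4 times between all other libraries. In experiment 1 the MSC libraries held many transcripts of blood cells: 20 marker genes of blood cells and macrophages summed to 495, 54.2, 55.9 and 70.5 CPM in EFPrx1MSCLC, against 13206, 36329 and 22892 CPM in MSC. Of these 20 genes, 18 passed the test as lower in EFPrx1MSCLC. Among them was Adgre1, which marks macrophages, with a log2 fold change of -7.46 ± 1.02 (SE; adjusted p = 0.00407 with edgeR). Adgre1 passed the filter on low counts through MSC alone. Of the 9 mesenchymal markers, each at 1 count or more in every library, 2 were lower in EFPrx1MSCLC and 1 was higher. Over all genes tested, 12.1% were lower and 7.7% higher. The lower markers were Col1a1 with a log2 fold change of -2.84 (adjusted p = 0.0247 with edgeR) and Pdgfrb with -1.76 (0.0388). Prrx1 was higher with 1.59 (0.039). Fewer blood cells and less RNA per cell cannot be told apart in these bulk samples, and the part of the blood cells in the differences below was not tested. The same 20 genes summed to between 13.2 and 32.1 CPM in every library of experiment 2, where Cd48, Cd52, Tyrobp, Adgre1, C1qa, C1qb, C1qc and Fcgr3 were at 0 counts in every library.

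The coding sequence of 5 ligands shows the families compared. Each line gives the stretch around the first cysteines from the GENCODE M21 transcript, 5′ to 3′, with the cysteine codons in capitals and, for Cxcl1 and Cxcl5, the Glu-Leu-Arg codons in capitals before them.
Cxcl1: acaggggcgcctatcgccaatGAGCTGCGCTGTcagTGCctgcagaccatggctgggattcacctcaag
Cxcl5: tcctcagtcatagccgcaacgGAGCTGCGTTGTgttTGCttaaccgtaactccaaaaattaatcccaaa
Cxcl10: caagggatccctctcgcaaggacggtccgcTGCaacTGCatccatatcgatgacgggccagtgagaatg
Ccl2: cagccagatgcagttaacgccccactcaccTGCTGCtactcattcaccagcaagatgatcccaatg
Cx3cl1: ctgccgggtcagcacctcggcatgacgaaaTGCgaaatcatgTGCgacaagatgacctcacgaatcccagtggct
The codons stand next to each other in Ccl2, 1 codon apart in the CXC genes and 3 codons apart in Cx3cl1. Of the 14 CXC genes, 6 had the Glu-Leu-Arg codons: Cxcl1, Cxcl2, Cxcl3, Cxcl5, Cxcl15 and Ppbp.

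The promoters of Cxcl1, Cxcl2, Cxcl3 and Cxcl10 are shown because the levels of the first 3 moved together in experiment 1 while that of Cxcl10 did not, and because these 4 hold matches to motifs of the pathways named above. They are RefSeq sequences of the build GRCm38.p6, 140 bases each, 5′ to 3′ on the strand of the gene, with matches in capitals. Distances are counted from the RefSeq start of the gene. The GENCODE start lies 4 bases upstream of it in Cxcl1, 28 upstream in Cxcl2 and 2 downstream in Cxcl3, and is the same in Cxcl10, and each window ends before both starts. Their positions are chr5:90891101-90891240 (plus strand) for Cxcl1, chr5:90903731-90903870 (plus) for Cxcl2, chr5:90785961-90786100 (plus) for Cxcl3 and chr5:92348970-92349109 (minus) for Cxcl10.
Cxcl1: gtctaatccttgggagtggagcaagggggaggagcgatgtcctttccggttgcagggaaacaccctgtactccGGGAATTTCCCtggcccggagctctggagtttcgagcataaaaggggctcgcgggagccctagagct
Cxcl2: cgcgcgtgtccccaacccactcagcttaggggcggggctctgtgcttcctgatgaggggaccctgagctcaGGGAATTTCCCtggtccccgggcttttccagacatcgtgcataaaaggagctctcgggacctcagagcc
Cxcl3: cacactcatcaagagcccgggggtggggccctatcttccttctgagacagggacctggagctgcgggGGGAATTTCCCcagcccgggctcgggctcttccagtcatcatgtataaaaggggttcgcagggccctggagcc
Cxcl10: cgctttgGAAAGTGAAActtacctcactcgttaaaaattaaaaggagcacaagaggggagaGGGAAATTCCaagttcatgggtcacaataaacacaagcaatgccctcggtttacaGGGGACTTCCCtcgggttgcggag
The same 10 letters, GGGAATTTCC, began 71 bases before the RefSeq start of Cxcl1, 97 before that of Cxcl2 and 73 before that of Cxcl3. They match the NF-kappaB consensus, which was searched on both strands, and the match on the other strand adds the last capital letter. In Cxcl10 that consensus matched at 159 bases before the start and again, in overlapping letters, at 104 and 103 bases before it. The core of the interferon-stimulated response element, searched on both strands as GAAANNGAAA, matched 213 bases before the start of Cxcl10. Over windows from 250 bases before to 50 bases after the start, 8.46% of 32851 promoters held the NF-kappaB consensus and 3.44% the interferon core. A promoter was found for 25 of the 34 ligands, of which 7 held the NF-kappaB consensus (Ccl1, Ccl9, Ccl20, Cxcl1, Cxcl2, Cxcl3 and Cxcl10) and 3 the interferon core (Ccl19, Cxcl10 and Cxcl14). A match is a description of the letters and not a binding site.

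Of the 34 ligands, most of those that MSC libraries expressed were far lower in EFPrx1MSCLC, across neutrophil, monocyte, macrophage inflammatory and eosinophil ligands alike, and Cx3cl1 was higher. The level of each gene is given as CPM, the count relative to the TMM-scaled library total, in the order of the titles above. Summed over the 34 genes, the level was 486, 246, 298 and 249 CPM in EFPrx1MSCLC, against 6643, 5875 and 4563 CPM in MSC. Every MSC library lay far above every EFPrx1MSCLC library, and the blood cell markers given above differed in the same direction.

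With edgeR's quasi-likelihood test and Benjamini-Hochberg adjustment over all 14623 genes tested, 24 of the 34 ligands had enough counts to be tested. At an adjusted p under 0.05, 19 were lower in EFPrx1MSCLC, where 12.1% of all genes tested were lower, and 1 was higher, where 7.7% of all genes were higher. The other 4, Ccl5, Ccl25, Cxcl10 and Cxcl12, did not pass. The median log2 fold change of the 24 was -6.40, against 0.04 over all genes tested. The 4 ligands Ccl11, Cxcl3, Cxcl13 and Ppbp had under 10 counts in every EFPrx1MSCLC library and passed the filter through MSC alone, so that they had to differ. The filter needs its minimum level in as many libraries as the smallest group holds. Ccl3, Ccl4, Ccl8, Ccl12, Ccl20, Cxcl2, Cxcl5, Cxcl14 and Pf4 reached it in too few EFPrx1MSCLC libraries, and so also passed through MSC alone. The calls of all these ligands add nothing to the count against the share over all genes. The same limit holds for the median. Without EFPrx1MSCLC 219, the library with the highest blood cell markers of its group, 20 ligands were lower and 1 higher.

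**Figure D1:**
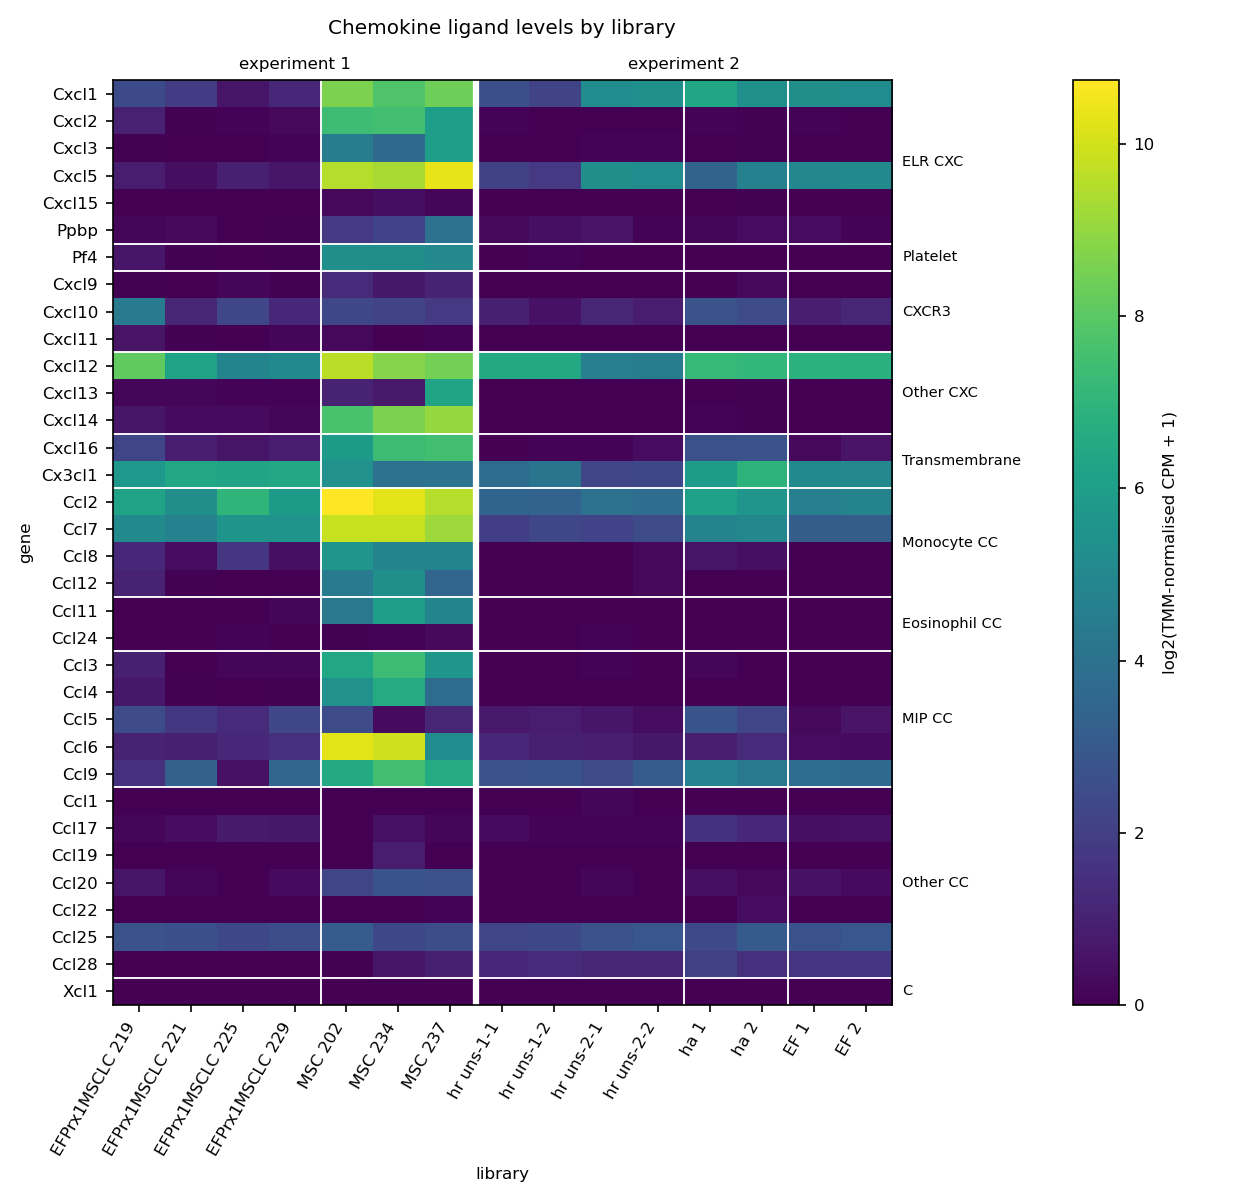
Level of each of the 34 ligands (vertical axis, by role) in each of the 15 libraries (horizontal axis), as log2 of TMM-normalised CPM + 1 on the colour scale. The MSC libraries are bright for Cxcl5, Ccl2, Ccl7 and, in 202 and 234, Ccl6, while the EFPrx1MSCLC libraries are dark for most genes other than Ccl2, Ccl7, Cxcl12 and Cx3cl1. Levels were scaled within each experiment and are not compared between experiments.

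Among the neutrophil-attracting CXC ligands, 5 of 6 were lower in EFPrx1MSCLC and the other, Cxcl15, was too low to test. Cxcl5, made by stromal and epithelial cells and a ligand of CXCR2, had 0.769, 0.336, 0.898 and 0.521 CPM in EFPrx1MSCLC, against 739, 642 and 1310.1 CPM in MSC. No EFPrx1MSCLC library reached 1 CPM, and the groups did not overlap. On the log2 scale the change was -10.48 ± 0.56 (SE; adjusted p = 0.00029), with edgeR as for every fold change below. Cxcl1, another CXCR2 ligand, had 4.36, 2.73, 0.513 and 1.39 CPM in EFPrx1MSCLC, against 391, 219 and 333 CPM in MSC. The fitted log2 change was -7.12 ± 0.73 (SE; adjusted p = 0.00185). Cxcl2, which macrophages also release, had 0.973, 0.0480, 0.0641 and 0.174 CPM in EFPrx1MSCLC, against 167, 179.7 and 64.4 CPM in MSC, and its log2 fold change was -8.74 ± 0.98 (SE; adjusted p = 0.00226). In both genes EFPrx1MSCLC 219 was the highest library of its group, and it stayed far below each MSC library.

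Cxcl3, the neighbour of these genes, had 0.0512, 0, 0 and 0.0695 CPM in EFPrx1MSCLC, against 21.8, 12.3 and 63.8 CPM in MSC. That was 3 counts in all 4 EFPrx1MSCLC libraries together and 1529 in the 3 MSC libraries, a ratio of 0.00114 (95% exact binomial interval 0.000235 to 0.00334, which covers counting error only; adjusted p = 0.0017 with edgeR). Ppbp, the precursor of a neutrophil attractant stored in platelets, had 0.154, 0.192, 0 and 0.0348 CPM in EFPrx1MSCLC, against 2.47, 3.48 and 15.3 CPM in MSC. MSC 237 stood above the other MSC libraries in both Cxcl3 and Ppbp, and the fold change of Ppbp was -6.12 ± 1.08 (SE; adjusted p = 0.00924) on the log2 scale. Pf4, also known as platelet factor 4, had 0.564, 0.0480, 0 and 0.0348 CPM in EFPrx1MSCLC, against 38.9, 39.0 and 31.9 CPM in MSC. Its MSC libraries were close to each other, and its log2 fold change was -7.79 ± 1.03 (SE; adjusted p = 0.00372). Of the 4 platelet and megakaryocyte markers, Gp1bb was lower in EFPrx1MSCLC, 2 did not pass and Gp9 was not tested.

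The 4 monocyte-attracting CC ligands were all lower. Ccl2, the main ligand of CCR2 on monocytes, had 71.6, 38.9, 131 and 56.9 CPM in EFPrx1MSCLC, against 1706, 1264 and 751 CPM in MSC. It remained well expressed in EFPrx1MSCLC, with every library below every MSC library, and its log2 fold change was -4.06 ± 0.52 (SE; adjusted p = 0.0034). Ccl7, which also binds CCR2, had 33.2, 25.1, 46.6 and 46.4 CPM in EFPrx1MSCLC, against 911, 922 and 571 CPM in MSC. These libraries agreed closely within each group, and the log2 fold change was -4.40 ± 0.36 (SE; adjusted p = 0.00086). Ccl8 had 1.33, 0.288, 2.24 and 0.348 CPM in EFPrx1MSCLC, against 47.3, 26.7 and 28.1 CPM in MSC, with a log2 fold change of -5.03 ± 0.77 (SE; adjusted p = 0.00588). Ccl12, a mouse CCR2 ligand, had 1.13, 0.0480, 0 and 0 CPM in EFPrx1MSCLC, against 20.7, 39.5 and 10.5 CPM in MSC. Nearly all of its reads in EFPrx1MSCLC came from 219. The log2 fold change of Ccl12 was -6.31 ± 1.47 (SE; adjusted p = 0.0244), and it was -10.15 without EFPrx1MSCLC 219. The call of Ccl12 was lost without EFPrx1MSCLC 221 (adjusted p = 0.0561), without MSC 234 (0.0898) or without MSC 237 (0.0561), within a range of 6.1e-05 to 0.0898 over its 11 alternatives.

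Per kilobase of exon, Ccl2 and Ccl7 stood highest in both groups. Ccl2 reached a mean level of 65.6 ± 35.0 CPM per kb in EFPrx1MSCLC (SD, n = 4), against 1089.8 ± 420.1 in MSC (SD, n = 3). Ccl7 reached 47.2 ± 13.2 CPM per kb in EFPrx1MSCLC, against 1000.2 ± 249 in MSC. They did not differ from each other by more than the spread of the libraries in either group. Next in MSC came Cxcl5 with 482 ± 194 and Ccl6 with 427 ± 359 CPM per kb, and next in EFPrx1MSCLC came Cx3cl1 with 18.9 ± 3.94 and Cxcl12 with 12.6 ± 14.5.

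Of the 2 eosinophil-attracting ligands, Ccl11, known as eotaxin, had 0, 0, 0 and 0.104 CPM in EFPrx1MSCLC, against 18.5, 61.9 and 27.8 CPM in MSC. All of its EFPrx1MSCLC reads, 3 in number, came from 229, against 1614 in MSC, a ratio of 0.00108 (95% exact binomial interval 0.000223 to 0.00317; adjusted p = 0.00169 with edgeR). Ccl24 reached at most 0.217 CPM in any library and was not tested.

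Among the ligands of the macrophage inflammatory kind, 4 of 5 were lower and Ccl5 did not pass. Ccl6, a mouse ligand of CCR1, had 1.02, 0.911, 1.35 and 1.74 CPM in EFPrx1MSCLC, against 1256, 1007 and 34.8 CPM in MSC. MSC 237 was far below the other MSC libraries and still above all of EFPrx1MSCLC, and the log2 fold change was -9.24 ± 1.22 (SE; adjusted p = 0.0037). Ccl9, its neighbour on the chromosome, had 1.69, 8.92, 0.385 and 10.3 CPM in EFPrx1MSCLC, against 93.7, 178 and 96.0 CPM in MSC. Levels in EFPrx1MSCLC fell into 221 and 229, which were high, and 219 and 225, which were low. With edgeR the log2 fold change was -4.51 ± 0.97 (SE; adjusted p = 0.0186), and the call was lost without MSC 234 (adjusted p = 0.0623, range over 11 alternatives 4.52e-06 to 0.0623).

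Ccl3 and Ccl4 are ligands that activated macrophages release. Ccl3 had 0.922, 0, 0.128 and 0.139 CPM in EFPrx1MSCLC, against 84.1, 163 and 50.9 CPM in MSC, with a log2 fold change of -8.37 ± 1.07 (SE; adjusted p = 0.0034). Ccl4 had 0.615, 0.0480, 0 and 0.0348 CPM in EFPrx1MSCLC, against 41.7, 96.0 and 12.8 CPM in MSC, with a log2 fold change of -8.14 ± 1.25 (SE; adjusted p = 0.00601). In both genes 219 held most of the EFPrx1MSCLC reads and MSC 234 was the highest library. Ccl5, a T cell attractant, had 4.41, 2.35, 1.48 and 3.86 CPM in EFPrx1MSCLC, against 4.54, 0.227 and 1.23 CPM in MSC. The groups overlapped, and the log2 fold change was 0.58 ± 0.89 (SE; adjusted p = 0.667).

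Cxcl14, a CXC ligand made by many tissues at rest, had 0.564, 0.240, 0.257 and 0.104 CPM in EFPrx1MSCLC, against 201, 391 and 518 CPM in MSC. The log2 difference came to -10.32 ± 0.68 (SE; adjusted p = 0.000552), and no omission of a library ended the call. Cxcl13, a B cell attractant, had 0.102, 0.0959, 0.0641 and 0.0695 CPM in EFPrx1MSCLC, against 1.03, 0.681 and 75.2 CPM in MSC. Almost all of its reads came from MSC 237. Its log2 change was -8.16 ± 1.85 (SE; adjusted p = 0.0222), and -3.28 without MSC 237. Without a filter on low counts the call of Cxcl13 was lost (adjusted p = 0.0554, range over 6 alternatives 0.0219 to 0.0554). Cxcl13 had a result in only 4 omissions of a library, against 7 for Cxcl14, so the narrow range is not a sign of stability.

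Cxcl12, the marrow niche ligand of CXCR4, had 279, 73.1, 27.4 and 33.8 CPM in EFPrx1MSCLC, against 782, 437 and 357 CPM in MSC. EFPrx1MSCLC 219 was the highest library of its group, and the groups did not overlap. The log2 fold change of -2.35 ± 0.83 (SE; adjusted p = 0.0844) did not pass with edgeR. It passed with DESeq2 (adjusted p = 0.0127) and without EFPrx1MSCLC 219, where the log2 fold change was -3.62 (adjusted p = 0.00681), within a range of 0.00681 to 0.17 over 11 alternatives.

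The 2 ligands with a membrane anchor went in opposite directions. Cxcl16, the ligand of CXCR6, had 3.74, 0.863, 0.513 and 0.799 CPM in EFPrx1MSCLC, against 56.2, 163 and 179 CPM in MSC. It was lower, with a log2 fold change of -6.48 ± 0.83 (SE; adjusted p = 0.0034). Zmynd15, which overlaps Cxcl16 on the opposite strand, had a log2 fold change of -4.57 (adjusted p = 0.0127), and no source used here says whether counting used the strand. Cx3cl1, or fractalkine, which binds CX3CR1 on monocytes and microglia, had 52.2, 85.1, 75.9 and 84.7 CPM in EFPrx1MSCLC, against 41.8, 15.2 and 15.9 CPM in MSC. All 4 EFPrx1MSCLC libraries were above all 3 MSC libraries, of which 202 was the highest. On the log2 scale the change was 1.61 ± 0.42 (SE; adjusted p = 0.0363). Its call was lost in 5 of 7 omissions of a library, without EFPrx1MSCLC 221, 225 or 229 and without MSC 234 or 237, and its adjusted p ranged from 0.00226 to 0.137 over 11 alternatives.

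**Figure D2:**
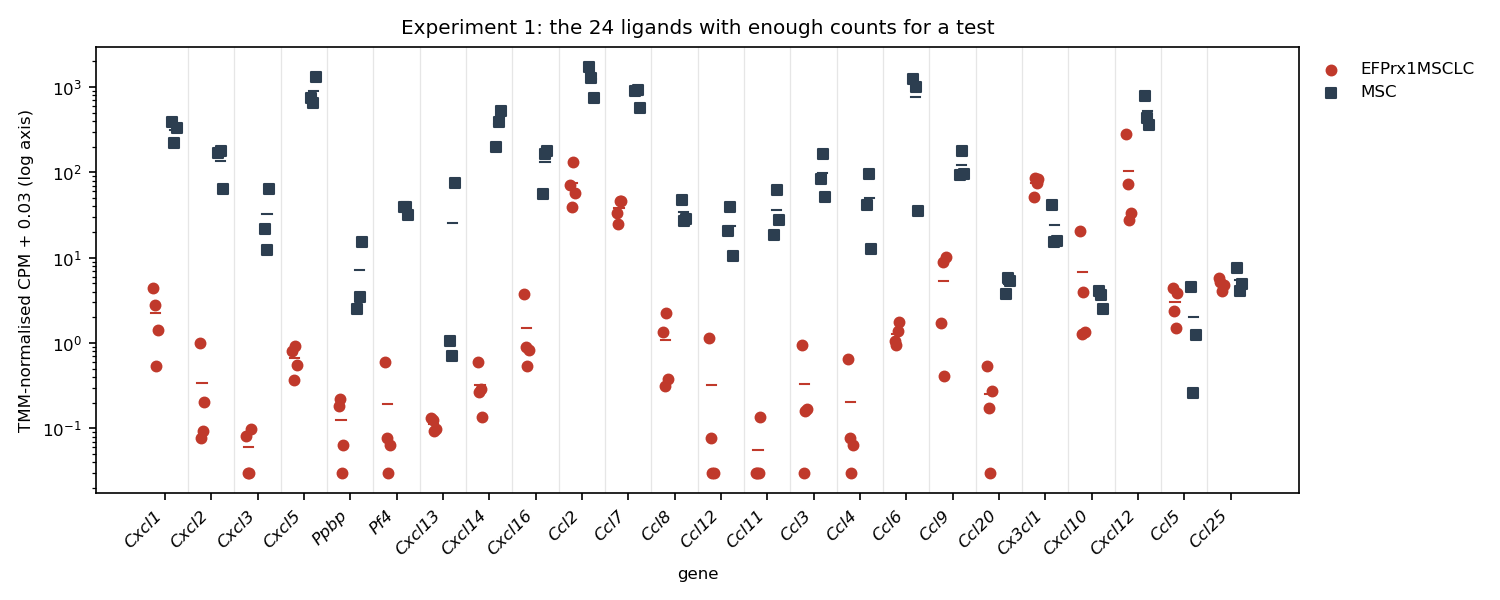
Levels of the 24 tested ligands in experiment 1, as TMM-normalised CPM + 0.03 on a log axis, 1 point per library, with short lines at the group means. In 19 genes the 4 EFPrx1MSCLC points (circles) lie below the 3 MSC points (squares) and passed the test, while in Cx3cl1 they lie above them, from 52.2 to 85.1 CPM.

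Several of these fold changes moved by over 1.5 times when 1 library was left out, and the call was kept in each case given here. Without EFPrx1MSCLC 219 the log2 fold change was -10.08 for Ccl3, -10.50 for Ccl4, -10.03 for Pf4, -10.36 for Cxcl2, -7.59 for Cxcl16, -7.72 for Cxcl1, -10.96 for Cxcl14 and -5.17 for Ccl20. Leaving out a further EFPrx1MSCLC library gave -6.74 for Ppbp without 221, -5.77 for Ccl8 without 225 and -5.14 for Ccl9 without 229. Of the MSC libraries, leaving out 237 gave -4.87 for Ppbp, leaving out 234 gave -7.25 for Ccl4, and leaving out 202 gave 2.27 for Cx3cl1.

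The remaining ligands were low. Ccl20, the ligand of CCR6, had 0.512, 0.144, 0 and 0.243 CPM in EFPrx1MSCLC, against 3.69, 5.83 and 5.27 CPM in MSC, with a log2 fold change of -4.39 ± 0.89 (SE; adjusted p = 0.0152). Its call was lost without MSC 234 (adjusted p = 0.0559) or MSC 237 (0.0557), within a range of 2.39e-07 to 0.0559 over 10 alternatives. Ccl25, a ligand of CCR9 in the thymus and gut, had 5.69, 5.13, 4.04 and 4.80 CPM in EFPrx1MSCLC, against 7.65, 4.09 and 4.84 CPM in MSC. The groups overlapped, with a log2 fold change of -0.17 ± 0.38 (SE; adjusted p = 0.774), and the gene overlaps Elavl1 on the opposite strand.

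Cxcl10, an interferon-induced ligand of CXCR3, had 20.4, 1.25, 3.91 and 1.32 CPM in EFPrx1MSCLC, against 4.09, 3.63 and 2.45 CPM in MSC. One EFPrx1MSCLC library, 219, was above all others, and the other 3 overlapped MSC. The fitted log2 change was 0.98 ± 1.02 (SE; adjusted p = 0.514), and -0.73 without 219. The other 10 ligands were not tested in experiment 1: Ccl1 and Xcl1 had no counts, and Ccl17, Ccl19, Ccl22, Ccl24, Ccl28, Cxcl9, Cxcl11 and Cxcl15 reached at most 1.53 CPM, that of Cxcl9 in MSC 202. A count of 0 in a library allows up to 3 counts.

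Most of these genes lie in clusters, in which neighbours share a family. On chromosome 5, 7 of them lie within 146.6 kb (chr5:90759360-90905938), in the order Cxcl5, Ppbp, Pf4, Cxcl3, Cxcl15, Cxcl1 and Cxcl2. The 6 tested in this block were all lower, and no other protein-coding gene lies in it. Further along the chromosome, Cxcl9, Cxcl10 and Cxcl11 lie within 44.1 kb (chr5:92321347-92365485), where none passed the test and only Cxcl10 could be tested. GENCODE M21 lists Cxcl11 as a polymorphic pseudogene. On chromosome 11, Ccl2, Ccl7, Ccl11, Ccl12, Ccl8 and Ccl1 lie within 270.1 kb (chr11:82035571-82305690), and the 5 tested were lower. In the second block of chromosome 11, Ccl5, Ccl9, Ccl6, Ccl3 and Ccl4 lie within 138.9 kb (chr11:83525778-83664683). There the 4 others were lower and Ccl5, at the edge, did not pass. On chromosome 8, Cx3cl1 lies between Ccl22 and Ccl17 within 66.4 kb, and of these only Cx3cl1 was tested.

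**Figure D3:**
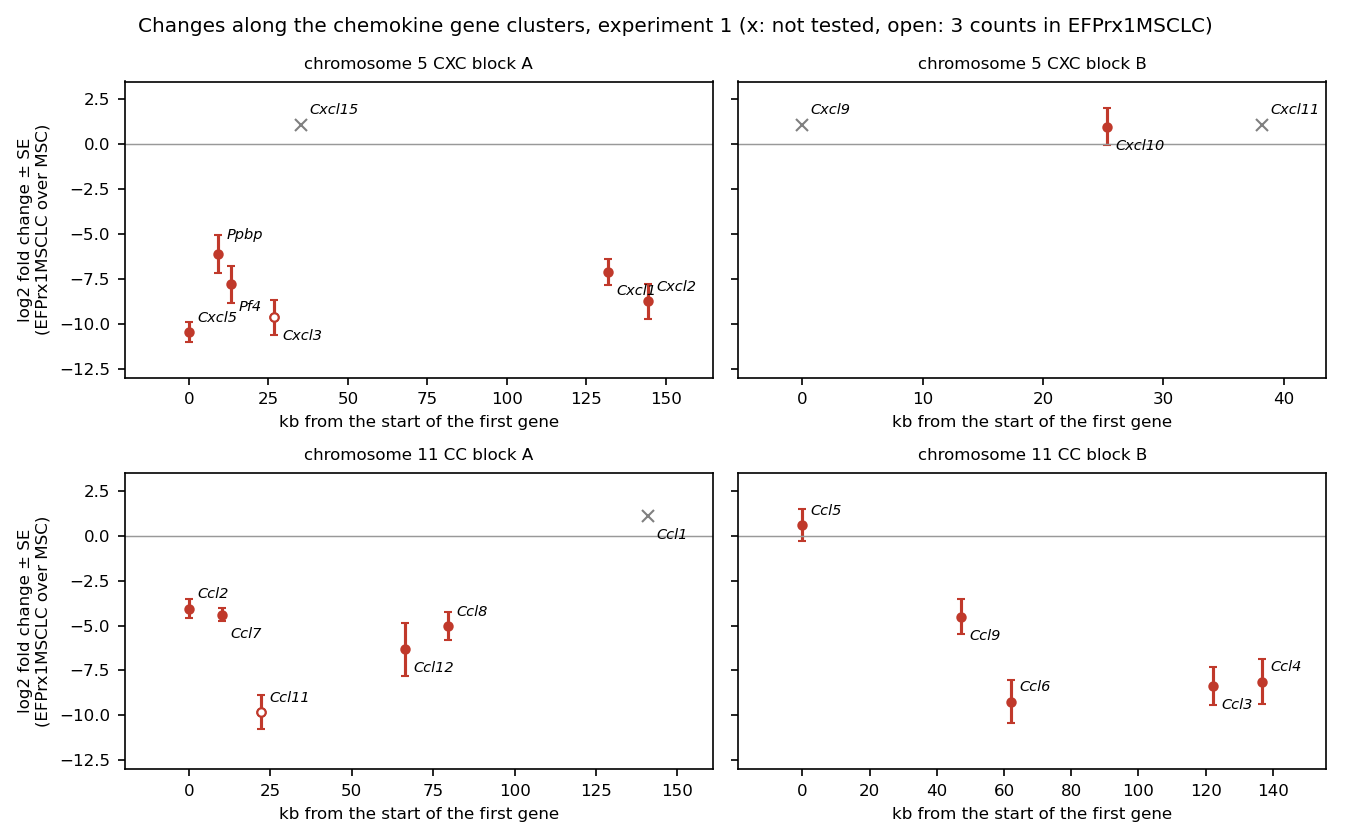
Log2 fold change of EFPrx1MSCLC over MSC (vertical axis, bars SE of the edgeR fit) against the distance in kb from the start of the first gene in each of 4 gene clusters. Crosses are genes not tested, and open circles are Cxcl3 and Ccl11, whose fitted values rest on 3 counts in EFPrx1MSCLC. All tested genes of the chromosome 5 block A and chromosome 11 block A lie below 0, and Ccl5 and Cxcl10 lie above 0 with no call.

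Genes of the surrounding pathway were counted by the same test. Of 23 chemokine receptors, 7 could be tested and all 7 were lower in EFPrx1MSCLC, among them Ccrl2, Cxcr4 and Ccr1. Over all genes tested, 12.1% were lower and 7.7% higher. Ccrl2 and Cxcr4 passed the filter through MSC alone, so the limit given for the ligands holds here too. Cxcr4, the receptor of CXCL12, averaged 1.06 ± 1.69 CPM in EFPrx1MSCLC (SD, n = 4), against 83.1 ± 40.5 in MSC (SD, n = 3). Of 29 inducing cytokines and NF-kappaB genes, 15 were lower, 1 was higher and 13 did not pass. Tnf had a log2 fold change of -7.14 ± 1.15 (adjusted p = 0.00679), Cebpb -3.86 ± 0.46 (0.00272), Cebpd -3.21 ± 0.55 (0.00828) and Nfkbia, the inhibitor that NF-kappaB induces, -2.25 ± 0.31 (0.00407). Of 20 interferon regulators, 18 were tested, of which 4 were lower (Ifnar2, Socs3, Irf5 and Irf8) and 14 did not pass. DESeq2 called 9 of the 18 lower, and 4599 of all 14623 genes in either direction. The blood cell markers differed in the same direction as these receptors and cytokines.

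In experiment 2 the cells of genotype ha had more of several ligands than EF cells, and the cells of genotype hr had less of some, with Ccl2, Ccl7 and Ccl9 called in both. Summed over the 34 ligands the level was 135, 139, 136 and 138 CPM in hr, 448.5 and 452 CPM in ha and 273 and 273 CPM in EF. The 3 groups did not overlap in this sum. Of the 34 ligands, 14 had enough counts to be tested in 13998 genes, and the other 20 reached at most 0.512 CPM, that of Ccl8 in ha 1. Among these 20, Ccl4, Ccl11, Ccl19, Cxcl11 and Xcl1 had no counts. Some markers of other cell types moved in the same order. Lyz2, of the blood cell list, averaged 0.427 ± 0.312 CPM in hr (SD, n = 4), 8.92 ± 2.89 in ha and 2.32 ± 0.351 in EF (SD, n = 2 each), with a log2 fold change of -4.35 in hr against ha (adjusted p = 0.00076), -2.41 in hr against EF (0.0445) and 1.94 in ha against EF (0.0279). Cd14 was higher in ha than in EF (adjusted p = 0.0472) and lower in hr than in ha (0.0364), while Cd68 was higher in hr than in ha (0.0262), and only these markers of the list passed. With the close libraries summed, only Lyz2 in hr against ha was still called. Of the 9 mesenchymal markers, 5 were higher and 1 lower in ha than in EF, where 23% and 19.6% of all genes tested were so. In hr against ha 1 was higher and 6 lower, where 17.9% and 21.5% of all genes tested were so. Among the lower were Pdgfrb with a log2 fold change of -3.95 (adjusted p = 0.000351 with edgeR) and Thy1 with -2.34 (0.000531). With the close libraries summed, which leaves EF with 1 library, these calls were not all kept. Krt19, of the epithelial list, ran the other way, with 33.5 ± 1.83 CPM in hr, 0.132 ± 0.0201 in ha and 10.3 ± 0.352 in EF. The part of these markers in the ligand differences was not tested. The ha against EF, hr against EF and hr against ha comparisons share libraries and come from 1 fit, so their results are not independent.

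In ha against EF, 8 of the 14 were higher (Ccl2, Ccl5, Ccl6, Ccl7, Ccl9, Ccl17, Cxcl10 and Cxcl16), where 23% of all genes tested were higher, and 0 were lower, where 19.6% were lower. None was lower at an unadjusted p under 0.05 either, and none with DESeq2. Of the 8, Ccl5, Ccl6, Ccl17 and Cxcl16 had under 10 counts in both EF libraries. Of these, Ccl5, Ccl17 and Cxcl16 were also under 10 counts in every hr library and passed the filter through ha alone, where they are high, so that they had to differ, and their calls add nothing to the count against the share over all genes. The median log2 fold change of the 14 was 1.34, against 0.05 over all genes. With the close libraries summed, which leaves EF with 1 library assumed to vary like the others, only Ccl7 was called. Without EF 1, 3 of the 8 calls held, and without EF 2, 4 held. The calls of Ccl2, Ccl6, Ccl9 and Ccl17 were lost on leaving out EF 1 and also on leaving out EF 2, and that of Cxcl10 on leaving out EF 1. Those of Ccl9 (adjusted p = 0.147) and Ccl17 (0.11) were lost without ha 1, and that of Ccl6 (0.078) without ha 2. Without EF 2 the log2 fold change was 4.86 for Cxcl16 and 4.67 for Ccl5.

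In hr against EF, 3 of the 14 were lower (Ccl2, Ccl7 and Ccl9), where 3.07% of all genes tested were lower, and 0 were higher with edgeR or DESeq2, where 3.88% were higher. At an unadjusted p under 0.05, 5 were lower and 1, Ccl6, was higher. All 3 calls were lost without EF 1, without EF 2 and with the close libraries summed, as were all calls in the table (973 genes with the libraries kept separate). Without uns-1-1, uns-1-2 or uns-2-1, 1 ligand was called lower. The median log2 fold change was -0.91, against 0.01 over all genes.

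In hr against ha, 8 of the 14 were lower (Ccl2, Ccl5, Ccl7, Ccl9, Ccl17, Cxcl10, Cxcl16 and Cx3cl1), where 21.5% of all genes tested were lower, and 0 were higher, where 17.9% were higher. None was higher with DESeq2 or at an unadjusted p under 0.05. Ccl5, Ccl17 and Cxcl16 are among the 8 and had under 10 counts in every hr library, so the limit given for ha against EF holds here too. Of these 8, 6 held with the close libraries summed. Cx3cl1 (adjusted p = 0.0525, range over 15 alternatives 2.09e-07 to 0.0525) and Ccl17 (0.0524, range over 14 alternatives 0.000473 to 0.0524) did not. Without ha 2 the log2 fold change of Cx3cl1 was -2.70, and without uns-2-2 that of Cxcl16 was -6.45. The median log2 fold change was -2.13, against -0.0035 over all genes.

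Ccl2 had 10.03 and 9.36 CPM in hr uns-1 and 14.9 and 13.3 CPM in hr uns-2, 70.7 and 47.7 CPM in ha and 24.6 and 27.2 CPM in EF. The 3 groups were stepped, with hr lowest and ha highest and no overlap. With edgeR the log2 fold change was -2.31 ± 0.22 (SE; adjusted p = 0.000333) in hr against ha, -1.12 ± 0.23 (SE; adjusted p = 0.0341) in hr against EF and 1.19 ± 0.27 (SE; adjusted p = 0.0094) in ha against EF. Ccl7 followed the same order, with 2.95 and 3.83 CPM in hr uns-1 and 3.43 and 4.62 CPM in hr uns-2, 27.2 and 30.6 CPM in ha and 8.07 and 7.98 CPM in EF. The log2 difference came to -2.96 ± 0.18 (SE; adjusted p = 5.56e-05) in hr against ha, -1.12 ± 0.19 (SE; adjusted p = 0.0196) in hr against EF and 1.85 ± 0.22 (SE; adjusted p = 0.000747) in ha against EF. Ccl9, a mouse CCR1 ligand that osteoclasts also make, had 5.31 and 5.96 CPM in hr uns-1 and 4.64 and 7.73 CPM in hr uns-2, 26.4 and 19.2 CPM in ha and 13.3 and 11.7 CPM in EF. These groups again did not overlap, and the log2 fold change was -1.95 ± 0.22 (SE; adjusted p = 0.00065) in hr against ha, -1.08 ± 0.23 (SE; adjusted p = 0.037) in hr against EF and 0.86 ± 0.26 (SE; adjusted p = 0.0321) in ha against EF.

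Ccl5, Cxcl10 and Cxcl16 were higher in ha than in both hr and EF, and hr against EF did not pass for any of them. Ccl5 had 0.675 and 0.766 CPM in hr uns-1 and 0.571 and 0.267 CPM in hr uns-2, 5.85 and 3.71 CPM in ha and 0.177 and 0.479 CPM in EF. Every other library was below 1 CPM, and the log2 fold change was 3.80 ± 0.62 (SE; adjusted p = 0.00278) in ha against EF and -3.04 ± 0.45 (SE; adjusted p = 0.00198) in hr against ha. Cxcl10 had 0.928 and 0.426 CPM in hr uns-1 and 1.21 and 0.800 CPM in hr uns-2, 5.78 and 4.60 CPM in ha and 0.887 and 1.20 CPM in EF. The ha libraries lay above all others while hr and EF overlapped. Its log2 change was 2.30 ± 0.47 (SE; adjusted p = 0.00662) in ha against EF and -2.60 ± 0.38 (SE; adjusted p = 0.00181) in hr against ha, and the interferon core and NF-kappaB letters of its promoter are those printed above.

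Cxcl16 had 0 and 0.0851 CPM in hr uns-1 and 0.0714 and 0.267 CPM in hr uns-2, 5.27 and 5.66 CPM in ha and 0.177 and 0.479 CPM in EF. It was near absent outside ha, at 5 counts in the 4 hr libraries and 8 in the EF pair, and its log2 fold change was 4.00 ± 0.73 (SE; adjusted p = 0.0043) in ha against EF and -5.60 ± 0.64 (SE; adjusted p = 0.000667) in hr against ha. The overlapping Zmynd15 moved likewise, with log2 fold changes of 1.88 in ha against EF (adjusted p = 0.0131) and -2.38 in hr against ha (0.00256), both of which were lost with the close libraries summed, and without strand the reads of these overlapping genes cannot be told apart. Ccl17, a ligand of CCR4 on T cells, had 0.253 and 0.0851 CPM in hr uns-1 and 0.0714 and 0.0888 CPM in hr uns-2, 1.90 and 1.30 CPM in ha and 0.355 and 0.399 CPM in EF. It was low in every library and highest in ha, with a log2 fold change of 2.05 ± 0.59 (SE; adjusted p = 0.0258) in ha against EF and -3.59 ± 0.54 (SE; adjusted p = 0.00195) in hr against ha. Ccl6 had 1.26 and 0.936 CPM in hr uns-1 and 0.856 and 0.622 CPM in hr uns-2, 0.878 and 1.53 CPM in ha and 0.266 and 0.239 CPM in EF. Here EF was the lowest group and hr overlapped ha, and its log2 fold change was 2.22 ± 0.58 (SE; adjusted p = 0.0179) in ha against EF and 1.83 ± 0.54 (SE; adjusted p = 0.0831) in hr against EF.

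**Figure D4:**
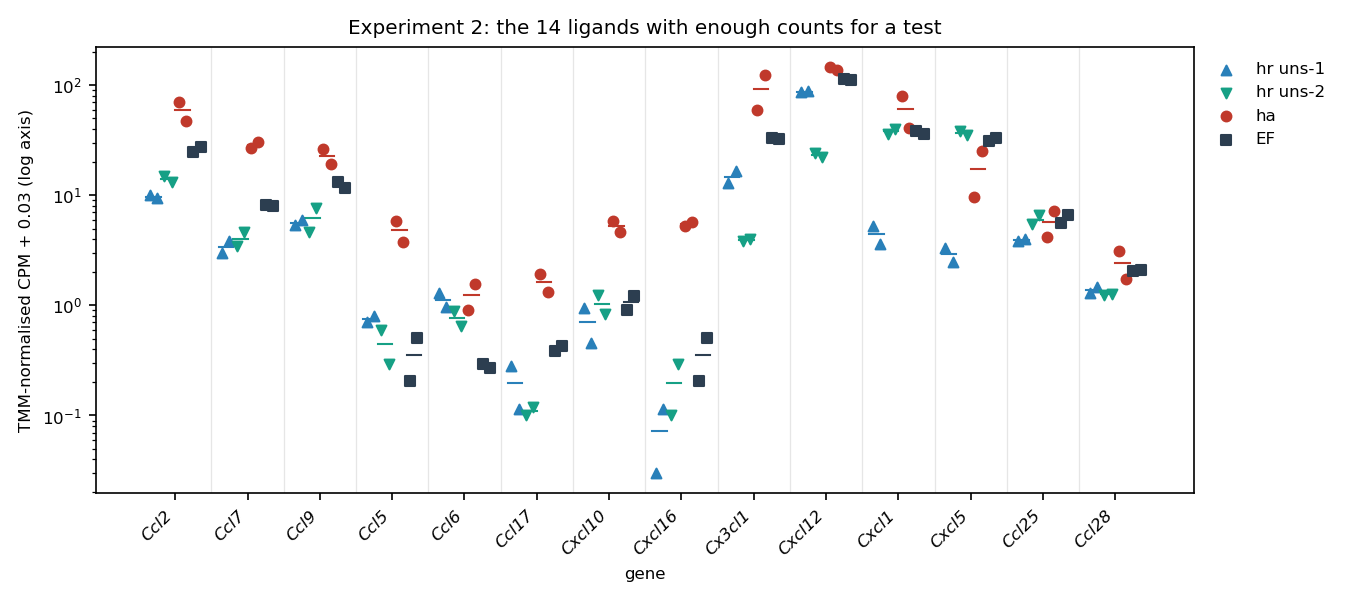
Levels of the 14 tested ligands in experiment 2, as TMM-normalised CPM + 0.03 on a log axis, 1 point per library, with short lines at the means of the hr uns-1 pair, the hr uns-2 pair, ha and EF. For Ccl2, Ccl7 and Ccl9 the hr points lie below and the ha points above the EF points, and for Cxcl1, Cxcl5, Cxcl12 and Cx3cl1 the uns-1 and uns-2 pairs lie apart.

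In 4 of the ligands, Cx3cl1, Cxcl12, Cxcl1 and Cxcl5, the hr libraries parted widely by their titles. The uns-1 and uns-2 pairs also did not overlap in Ccl2, Ccl5, Ccl6, Ccl25 and Ccl28, but lay closer there. Over the genes compared, an uns-1 and an uns-2 library differed by 12.5 to 13.6 times counting noise. The share of all genes whose pairs do not overlap was not counted, so no trait of the ligands is shown by this. Cx3cl1 had 12.8 and 16.5 CPM in hr uns-1 and 3.78 and 4.00 CPM in hr uns-2, 60.1 and 123 CPM in ha and 33.2 and 32.6 CPM in EF. All hr libraries were below EF and ha, with uns-2 lower than uns-1. The log2 fold change of hr against ha was -3.31 ± 0.58 (SE; adjusted p = 0.00379), while hr against EF was -1.83 ± 0.58 (SE; adjusted p = 0.0984) and ha against EF 1.48 ± 0.68 (SE; adjusted p = 0.116). The last passed only in the fit of ha and EF alone (adjusted p = 0.038, range over 15 alternatives 0.038 to 0.436), and hr against EF only with DESeq2 (0.0197, range 0.0197 to 0.916).

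Cxcl12 had 87.0 and 88.7 CPM in hr uns-1 and 24.5 and 22.2 CPM in hr uns-2, 146 and 138 CPM in ha and 114 and 112 CPM in EF. The uns-2 libraries stood lowest, the uns-1 libraries next, and EF and ha highest. None of its comparisons passed with edgeR: the log2 fold change was -1.35 ± 0.56 (SE; adjusted p = 0.0891) in hr against ha, -1.03 ± 0.56 (SE; adjusted p = 0.291) in hr against EF and 0.32 ± 0.66 (SE; adjusted p = 0.722) in ha against EF. With DESeq2, hr against ha passed (adjusted p = 0.0337, range over 15 alternatives 0.0337 to 0.293).

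The neutrophil attractants Cxcl1 and Cxcl5 ran the other way, being low in uns-1 and high in uns-2. Cxcl1 had 5.23 and 3.58 CPM in hr uns-1 and 36.0 and 40.4 CPM in hr uns-2, 80.2 and 40.6 CPM in ha and 38.2 and 36.0 CPM in EF. The uns-2 libraries were level with EF, and the uns-1 libraries were the lowest. Cxcl5 had 3.29 and 2.47 CPM in hr uns-1 and 38.1 and 35.0 CPM in hr uns-2, 9.58 and 25.0 CPM in ha and 30.9 and 33.5 CPM in EF. Again uns-2 was level with EF, with ha in between. The hr group held both patterns, and none of the comparisons of these genes passed: the log2 fold change of hr against EF was -0.80 ± 0.88 (SE; adjusted p = 0.61) for Cxcl1 and -0.70 ± 1.01 (SE; adjusted p = 0.706) for Cxcl5, that of ha against EF 0.70 ± 1.02 (SE; adjusted p = 0.612) and -0.89 ± 1.19 (SE; adjusted p = 0.582), and that of hr against ha -1.50 ± 0.86 (SE; adjusted p = 0.199) and 0.19 ± 1.04 (SE; adjusted p = 0.902). The difference between uns-1 and uns-2 was seen in the values and was not tested. Cxcl2 and Cxcl3, which lie in the same block and carry the same promoter letters as Cxcl1, reached at most 0.0887 and 0.0888 CPM in this experiment.

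Ccl25 and Ccl28, a mucosal ligand of CCR10, did not pass in any comparison, except that Ccl28 was lower in hr than in ha without ha 2 (adjusted p = 0.0223). Ccl25 had 3.79 and 4.00 CPM in hr uns-1 and 5.42 and 6.57 CPM in hr uns-2, 4.17 and 7.19 CPM in ha and 5.59 and 6.63 CPM in EF, so that all groups overlapped. Ccl28 had 1.26 and 1.45 CPM in hr uns-1 and 1.21 and 1.24 CPM in hr uns-2, 3.07 and 1.71 CPM in ha and 2.04 and 2.08 CPM in EF. In Ccl28 the hr libraries were below all others, with a log2 fold change of -0.88 ± 0.32 (SE; adjusted p = 0.0626) in hr against ha and -0.67 ± 0.33 (SE; adjusted p = 0.246) in hr against EF.

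**Figure D5:**
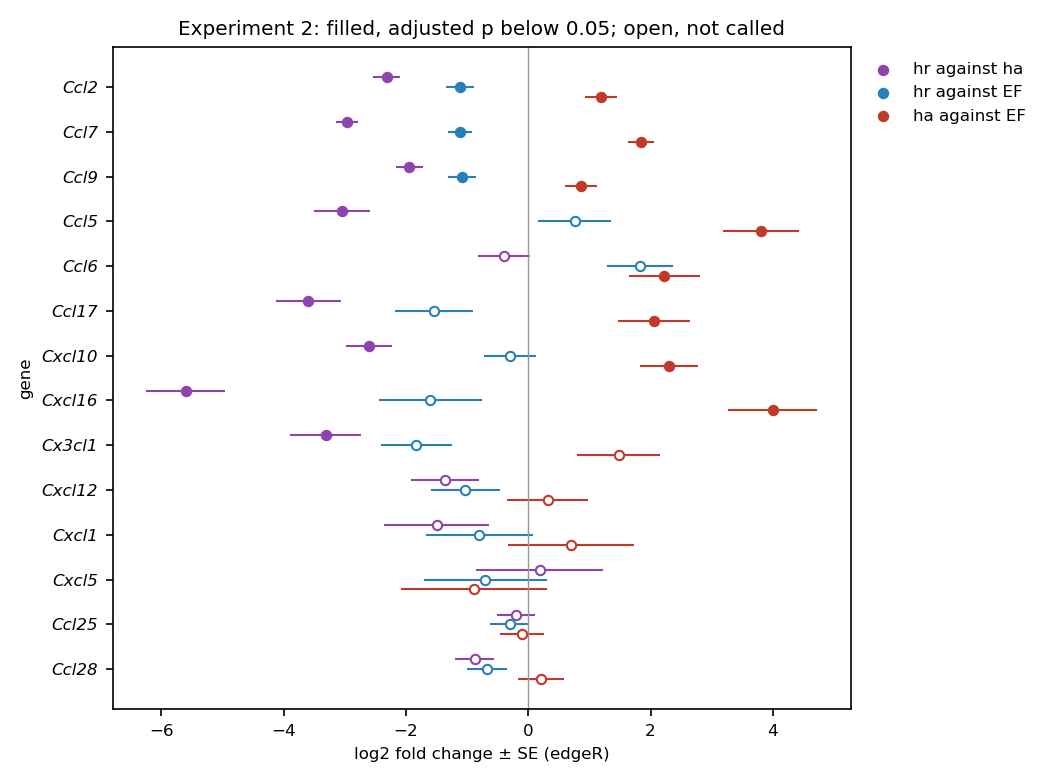
Log2 fold change of the 14 tested ligands (vertical axis) in experiment 2, with bars for the SE of the edgeR fit, for hr against ha, hr against EF and ha against EF. Filled points have an adjusted p under 0.05. The filled ha against EF points all lie right of 0, from 0.86 to 4.00, and the filled hr points all lie left of 0.

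The order of the ligands by level per kilobase of exon differed between the groups. In hr, Cxcl1 (11.4 ± 10.5 CPM per kb; SD, n = 4), Cxcl5 (10.6 ± 10.5) and Ccl2 (10.5 ± 2.33) had close means, but uns-1 and uns-2 differed in their order. Ccl2 was the highest of the 3 in uns-1, at 8.82 and 8.23 CPM per kb, against 2.79 and 1.91 for Cxcl1 and 1.77 and 1.33 for Cxcl5. In uns-2 Ccl2 was the lowest of them, at 13.1 and 11.7 CPM per kb, against 19.2 and 21.6 for Cxcl1 and 20.5 and 18.8 for Cxcl5. In ha, Ccl2 (52.1 ± 14.3; SD, n = 2), Ccl7 (36.1 ± 3.03) and Cxcl1 (32.2 ± 15.0) led. In EF, Ccl2 (22.8 ± 1.65; SD, n = 2), Cxcl1 (19.8 ± 0.841) and Cxcl5 (17.3 ± 1.01) led.

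Of the 23 chemokine receptors, only Ackr3, the scavenger of CXCL12, could be tested in experiment 2. It averaged 46.5 ± 8.04 CPM in hr (SD, n = 4), 8.66 ± 2.75 CPM in ha and 9.26 ± 1.58 CPM in EF (SD, n = 2 each). On the log2 scale the change was 2.43 ± 0.26 (SE; adjusted p = 0.000476) in hr against ha and 2.33 ± 0.26 (0.0077) in hr against EF, and with the close libraries summed only the call in hr against ha was kept (adjusted p = 0.0163). Of the 20 interferon regulators, 18 were tested, of which 6 were higher and 1 lower in ha than in EF, and 1 higher and 7 lower in hr than in ha. Over all genes tested, 23% were higher and 19.6% lower in ha than in EF, and 17.9% higher and 21.5% lower in hr than in ha. With the close libraries summed, 1 regulator was higher in ha than in EF and 3 were lower in hr than in ha. Irf9, a subunit of the factor that binds the interferon-stimulated response element, averaged 8.04 ± 3.05 CPM in hr (SD, n = 4), 36.5 ± 5.93 in ha and 4.88 ± 0.126 in EF (SD, n = 2 each). The fitted log2 change was -2.18 ± 0.31 (SE; adjusted p = 0.00172) in hr against ha and 2.90 ± 0.41 (SE; adjusted p = 0.00158) in ha against EF, and Irf7 passed in the same directions. With the close libraries summed, both calls of Irf9 were kept, and Irf7 was kept in hr against ha (adjusted p = 0.0486) and lost in ha against EF (0.0711). In hr against EF none of the 18 passed with edgeR or DESeq2, and at an unadjusted p under 0.05 with edgeR 1 was lower. Of 29 inducing cytokines and NF-kappaB genes, 25 were tested. In ha against EF, 3 were higher, Myd88 and Nfkbia among them, and 2 lower, Chuk and Nfkbib, and in hr against ha 3 were higher and 8 lower. In hr against EF the only call was Il17ra, which was lower, where 3.07% of all genes tested were lower. At an unadjusted p under 0.05 with edgeR 4 were lower and 2 higher, where 3640 of all 13998 genes passed. The counts in ha against EF are below the shares over all genes, and with the close libraries summed none of the 25 passed in any comparison.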

How the data were processed

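RNA of 15 libraries was enriched for poly(A), per the labels' protocols. Reads were aligned with STAR and quantified with RSEM on GRCm38.p6, per the submitters' processing notes. Their versions, the annotation release and the strand setting were not given in the sources used here. The authors deposited 1 table of RSEM expected counts per gene, not normalised, in which reads that fit several genes are shared out by estimate, so that close paralogs such as Cxcl1, Cxcl2 and Cxcl3 carry that error. 8.268% of the values were not whole and were rounded, which changed a library total by at most 0.000299%.

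Groups followed the genotype label. Each experiment was fitted alone in R 4.3.3 with edgeR 4.0.16 (filterByExpr with a minimum count of 10, TMM, robust quasi-likelihood fit, two-sided test, Benjamini-Hochberg adjustment, threshold 0.05). Experiment 2 was 1 fit of its 3 groups. CPM used TMM-scaled totals, and levels between genes were compared per kb of the union of exons in GENCODE M21, which matched 55230 of 55471 gene IDs. Alternatives were DESeq2 1.42.0, other size factors, other filters, leaving out each library, fits of the compared groups alone, close libraries summed and the final title number as a block. The test was tried on simulated counts first. Depth sets the floor: a count of 0 allows up to 3 counts, and counting intervals cover counting error only.

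The members, the gene lists and the markers were chosen with earlier results of these data known. Every ligand past the threshold in any comparison, or with a group mean of 10 CPM or more, is given with each library's value. Of each other list, up to 4 genes past the threshold per comparison are named by p-value, of which some are not reported here. The promoters and coding stretches, and the 219 and uns-1 against uns-2 contrasts, were picked after the values were seen.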

Additional observations from a re-analysis of the deposited data

Results flagged for a closer look

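Of 38 sets of 4 libraries that could be checked, 9 had 1 library far from the other 3 by Dixon's test at 95%. The test's chance rate of about 1 set in 20 cannot be set against this count. Several sets hold counts near 0, the hr sets are pairs of close copies, and the sets share libraries. In 7 of the 9 the library was EFPrx1MSCLC 219, which was high for Ccl3 (0.922 CPM), Ccl4 (0.615), Ccl12 (1.13), Cxcl2 (0.973), Cxcl10 (20.4), Cxcl16 (3.74) and Pf4 (0.564). The other EFPrx1MSCLC libraries were at or below 3.91 CPM for Cxcl10, 0.863 for Cxcl16 and 0.174 for the others. This library also had the highest sum of the 20 blood cell and macrophage markers of its group, 495 CPM, against 54.2 to 70.5 CPM in the other 3, and the part of blood cells in these values was not tested.

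The other sets were Ccl11 in EFPrx1MSCLC 229 (0.104 CPM, against 0 in the other 3 libraries) and Ccl17 in hr uns-1-1 (0.253 CPM, against 0.0714 to 0.0888 in the other hr libraries). Each rests on 3 counts.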

How the results depend on the processing

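No called ligand changed direction under any alternative. Of the ligands' own results under alternatives, 241 kept their side of the threshold, 12 lost a call and 2 gained one in EFPrx1MSCLC against MSC, as did 182, 22 and 1 in ha against EF, 183, 18 and 1 in hr against EF, and 201, 2 and 2 in hr against ha.

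In EFPrx1MSCLC against MSC, DESeq2 called 4599 genes in all against 2889, and leaving out 1 library gave 1221 to 5087 genes and 0 to 1 ligands higher. In ha against EF, the stricter filter, which tested 9 ligands, called 4 higher, summing close libraries called 1 ligand and 727 genes against 5962, and leaving out 1 library gave 3 to 8 ligands and 3071 to 5733 genes. In hr against EF, summing close libraries called 0 ligands lower and 0 genes, leaving out 1 library gave 0 to 3 ligands and 0 to 1797 genes, DESeq2 called 1972 genes, and the fit of hr and EF alone 1926, against 973. In hr against ha, the stricter filter called 5 ligands lower and summing close libraries 1269 genes against 5517.

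With the final title number as a replicate block, 1 ligand was lower in hr against EF (322 genes in all), 7 were higher in ha against EF (5233 genes) and 8 lower in hr against ha (4687 genes). Differences between the libraries numbered 1 and 2 correlated at -0.0209 to 0.0193 across groups. Within the EF, uns-1 and uns-2 pairs these differences are little above counting noise, so this cannot show whether the numbers pair libraries. Size factors moved the median log2 fold change by at most 0.05. The causes were not tested beyond the construction of the filters and sums. Genes with few counts and groups of 2 libraries limit what can be seen.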
